A study of Oryzias latipes with 2 samples.

Results

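The Hox genes of adult medaka skin are described here: 37 genes, chosen because their symbol in the deposited feature list begins with hox, a complex letter A to D and a paralog number, out of 23601 features measured. The set held 12 genes of the HoxA complexes, 11 of HoxB, 9 of HoxC and 5 of HoxD. By paralog group, 8 belonged to groups 1 to 3 (anterior), 13 to groups 4 to 8 (middle) and 16 to groups 9 to 13 (posterior). Features without a symbol were not searched, so further Hox genes may lie among them. The choice used the symbols only and no measured value.

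Skin and scales came from adult wild-type medaka (Oryzias latipes, HdrR, described in the labels as the Southern phenotype), male and female. Cells were dissociated with TrypLE, stained with Draq5 and sorted, and the series' design text says that the sort favoured pigment cells by GFP and mCherry signal. The sources used here give neither the gates nor what carried these signals. The 2 droplet libraries, run 1 and run 2, carry the same labels and form 1 group. No label ties them to separate animals, so every p-value below measures only how class differences vary between these libraries, which may be technical. That spread was pooled over the 6 classes fitted. Each library was a matrix of unique molecular identifiers (UMIs), 1 for each captured transcript 3′ end, and levels are UMIs scaled to a class total of 1000000 UMIs (CPM). Since 1 UMI stands for 1 transcript whatever its length, CPM was not divided by gene length.

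Hox genes encode homeodomain transcription factors that lie in complexes, and the order of genes along a complex matches the order of their expression along the body axis of the embryo. Low paralog groups act toward the head and high groups toward the tail and the ends of fins and limbs. In mammals, adult fibroblasts from different body sites keep different Hox genes, and this is a known positional record of skin. Teleost fish hold duplicated complexes, marked a and b in gene names. No sequence of these genes was at hand for the files' annotation, so none is shown.

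The cell classes came from clusters built without the Hox genes and were checked against their defining markers. Fibroblast-like cells held dcn and lum, which encode small proteoglycans of the dermal matrix, at 4113 and 1169 CPM in run 1 and 3055 and 1029 CPM in run 2. CRABP1 cells held CRABP1, a carrier of retinoic acid inside the cell, at 1340 and 993 CPM, against 441 and 64.0 CPM in fibroblast-like cells. They also held the keratin krt5 at 9667 and 11284 CPM, with epcam at 41.8 and 2.38 CPM, so they joined fibroblast and keratin markers and are called by their leading gene only. Keratinocyte-like cells held epcam, an epithelial adhesion gene, at 26477 and 17408 CPM. Leucophore-like cells held KIRREL3 at 2907 and 4557 CPM. Xanthophore-like cells of run 1 held scarb1, a lipoprotein receptor, and sox5, a transcription factor of this lineage, at 1633 and 833 CPM.

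The xanthophore-like class of run 2 went against its label. It held 12 cells, of which 8 carried pmela, a melanosome matrix gene of melanophores. The summed level of 10 melanophore markers was 9586 CPM there against 556 CPM in run 1, and that of 4 cycling markers was 718 against 18.4 CPM. Those 8 cells gave 0 Hox UMIs among 46842 UMIs, and the other 4 gave 2. The Hox results on xanthophore-like cells are therefore given with and without run 2. Counts for the other gene lists were made only with run 2 included.

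Of the 37 genes, 35 had at least 1 UMI in the 4888 cells kept and 2, hoxb1a and hoxb13a, had 0. At least 20 UMIs were seen for 23 genes and 1 to 19 for 12. The Hox UMIs numbered 3769 in run 1 and 565 in run 2. Run 1 held 4335 cells with a median of 4149 UMIs and run 2 held 553 cells with a median of 9791 UMIs, and no barcode was shared. By complex, HoxC gave 2550 UMIs, HoxA 1152, HoxB 470 and HoxD 162. By paralog sector, posterior genes gave 2606, middle genes 1091 and anterior genes 637. These totals weight the classes by the cells caught: xanthophore-like cells gave 70.4% of the Hox UMIs of run 1 and leucophore-like cells 46.5% of those of run 2.

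Adult skin cells held Hox transcripts in every class of the mesenchyme, of pigment and of epithelium that was examined, with fibroblast-like, CRABP1 and, in run 1, xanthophore-like cells the highest of the 5 classes tested below. The summed Hox level was 338 CPM (95% Poisson interval 292 to 390) in the 167 fibroblast-like cells of run 1 and 187 CPM (130 to 259) in the 35 of run 2. In CRABP1 cells it was 279 CPM (251 to 310) over 212 cells and 226 CPM (183 to 276) over 31 cells. In xanthophore-like cells of run 1 it was 259 CPM (249 to 269) over 2217 cells, and in run 2 it was 25.2 CPM (3.05 to 91.0). These intervals cover counting error only.

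Leucophore-like cells stood below fibroblast-like and CRABP1 cells in both runs, at 97.9 CPM (56.0 to 159) over 26 cells in run 1 and 103 CPM (91.0 to 116) over 215 cells in run 2. Keratinocyte-like cells stood lower still, at 37.4 CPM (33.5 to 41.7) over 897 cells and 37.6 CPM (30.7 to 45.7) over 162 cells. T or NK cell-like cells, used here as the background class, gave 5.27 and 5.34 CPM from 9 UMIs and 1 UMI. Within each run the ratio of keratinocyte-like to T or NK cell-like cells was 7.1 (3.70 to 15.7) and 7.05 (1.24 to 281). Keratinocyte-like and background levels were thus apart in both runs, while fibroblast-like and CRABP1 cells changed places between runs, at ratios of 1.21 (1.01 to 1.45) and 0.827 (0.544 to 1.23).

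**Figure D1:**
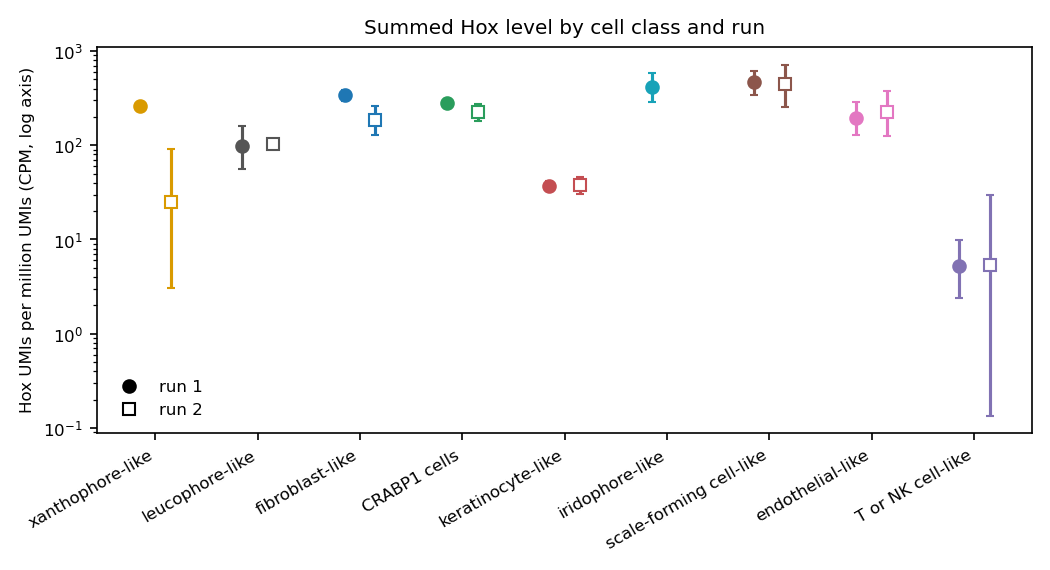
Summed level of the 37 Hox genes by cell class, in CPM on a log axis, with filled circles for run 1, open squares for run 2 and bars for 95% Poisson intervals. Classes with under 5 cells in a run are not drawn, and keratinocyte-like cells sit at 37.4 and 37.6 CPM, below leucophore-like cells and above the T or NK class.

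The smaller classes were also above the keratinocyte-like level. Scale-forming cell-like cells gave 467 and 444 CPM from 29 and 8 cells, endothelial-like cells 197 and 227 CPM from 20 and 6 cells, and iridophore-like cells 421 CPM from 30 cells of run 1. Macrophage-like and neutrophil-like cells gave 0 Hox UMIs, but with 18 and 12 cells in run 1 their totals allow up to 76.1 and 181 CPM there. At their depth they could not be told from keratinocyte-like cells.

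Per cell, the counts were sparse. After each cell was thinned to 2000 UMIs, 46.3% and 30% of fibroblast-like cells held a Hox UMI, 37.7% and 33.3% of CRABP1 cells, and 36.2% of xanthophore-like cells of run 1. The shares were 20% and 20.8% in leucophore-like cells, 6.34% and 8.28% in keratinocyte-like cells, and 0.624% and 0% (0 of 38, up to 9.25%) in T or NK cell-like cells, whose median depths were 2805 and 3881 UMIs. Without thinning, 54.9% of xanthophore-like cells of run 1 and 59.1% of leucophore-like cells of run 2 held a Hox UMI, at median depths of 4355 and 11751 UMIs. The unthinned shares therefore put leucophore-like cells above xanthophore-like cells, against the CPM and the thinned shares, and no order is read from them.

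Carried-over RNA from the largest class can be set beside these levels. In run 1, scarb1 in keratinocyte-like cells stood at 0.454% of its xanthophore-like level, their summed Hox level at 14.5% and hoxc10a at 11.7%. T or NK cell-like cells of run 1 held scarb1 at 9.95 CPM and Hox genes at 5.27 CPM, beside 7.41 and 37.4 CPM in keratinocyte-like cells. In run 2, KIRREL3 in keratinocyte-like cells stood at 0.0243% of its leucophore-like level and their summed Hox level at 36.5%. In fibroblast-like cells of run 1, scarb1 stood at 4.77% of the xanthophore-like level, hoxc12a at 103% and hoxc10a at 29.6%. The part of carried-over RNA in the Hox levels was not tested.

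**Figure D2:**
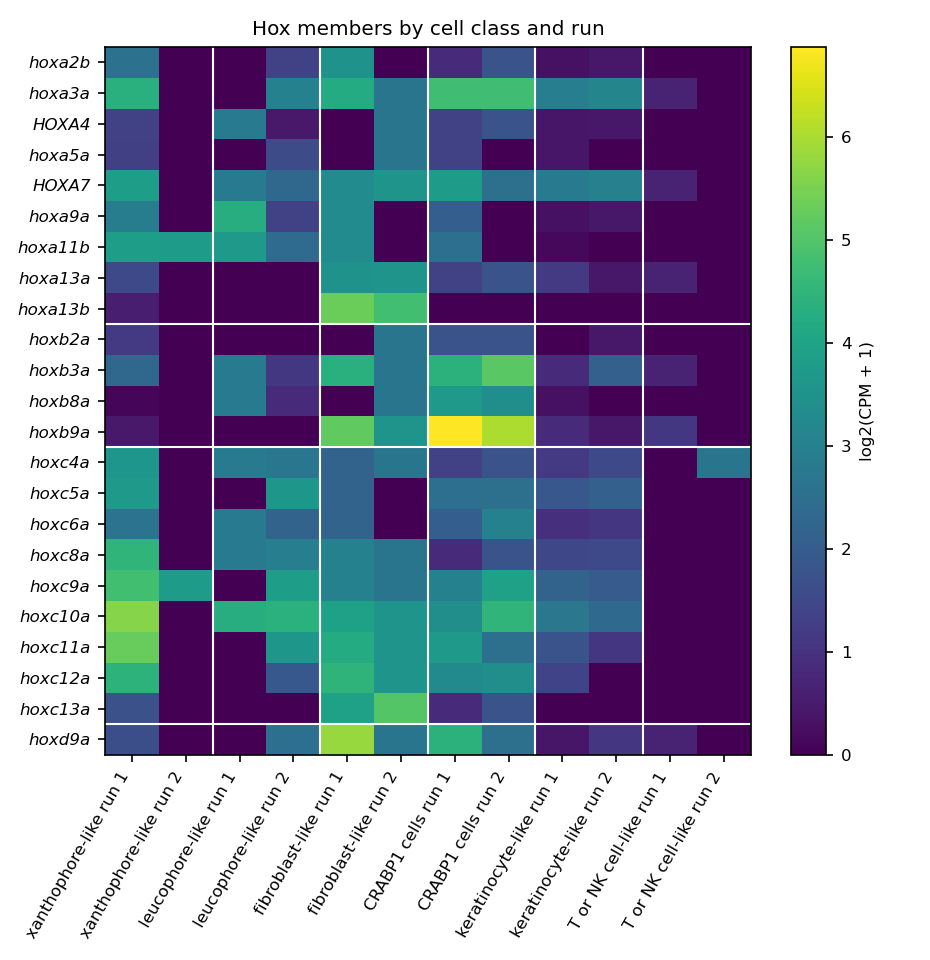
Levels of the 23 Hox genes with at least 20 UMIs, as log2(CPM + 1), with a row for each gene, ordered by complex and paralog group, and a column for each class and run. The HoxC block is bright in xanthophore-like cells of run 1, hoxb9a in CRABP1 cells, and hoxa13b and hoxc13a in fibroblast-like cells.

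The classes drew on different paralog groups. In xanthophore-like cells of run 1, 71.6% of 2654 Hox UMIs came from HoxC (69.8 to 73.3, exact binomial interval) and 62.2% from posterior groups (60.3 to 64.0), with group 11 the largest at 19.8%. In leucophore-like cells of run 2, 72.2% of 263 Hox UMIs came from HoxC (66.4 to 77.6) and 56.7% from posterior groups (50.4 to 62.7). Run 1 of that class differed: of its 16 Hox UMIs, HoxC gave 37.5% (15.2 to 64.6) and HoxA 43.8%. In fibroblast-like cells 74.9% and 71.4% came from posterior groups, but HoxC gave only 27.2% and 42.9%, and HoxD gave 24.6% and 8.57%. CRABP1 cells drew on HoxB for 54.5% and 48.4%, against 2.90% in xanthophore-like cells of run 1.

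Keratinocyte-like cells had the smallest posterior share among these classes, 42.7% (37.3 to 48.2) and 27.5% (19.1 to 37.2). Middle groups gave 36.6% and 41.2% of their Hox UMIs and anterior groups 20.7% and 31.4%. HoxC gave 52.7% and 43.1% of them, so a large HoxC share was not particular to pigment classes. Group 13, the most posterior, gave 18.8% (13.6 to 25.1) and 37.1% (21.5 to 55.1) in fibroblast-like cells, 1.77% in xanthophore-like cells of run 1, 0.847% and 2.11% in CRABP1 cells, and 0 of 263 UMIs in leucophore-like cells of run 2, which allows up to 1.39% (exact binomial). These shares are descriptions of the UMIs in each class, and no test was made between them.

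**Figure D3:**
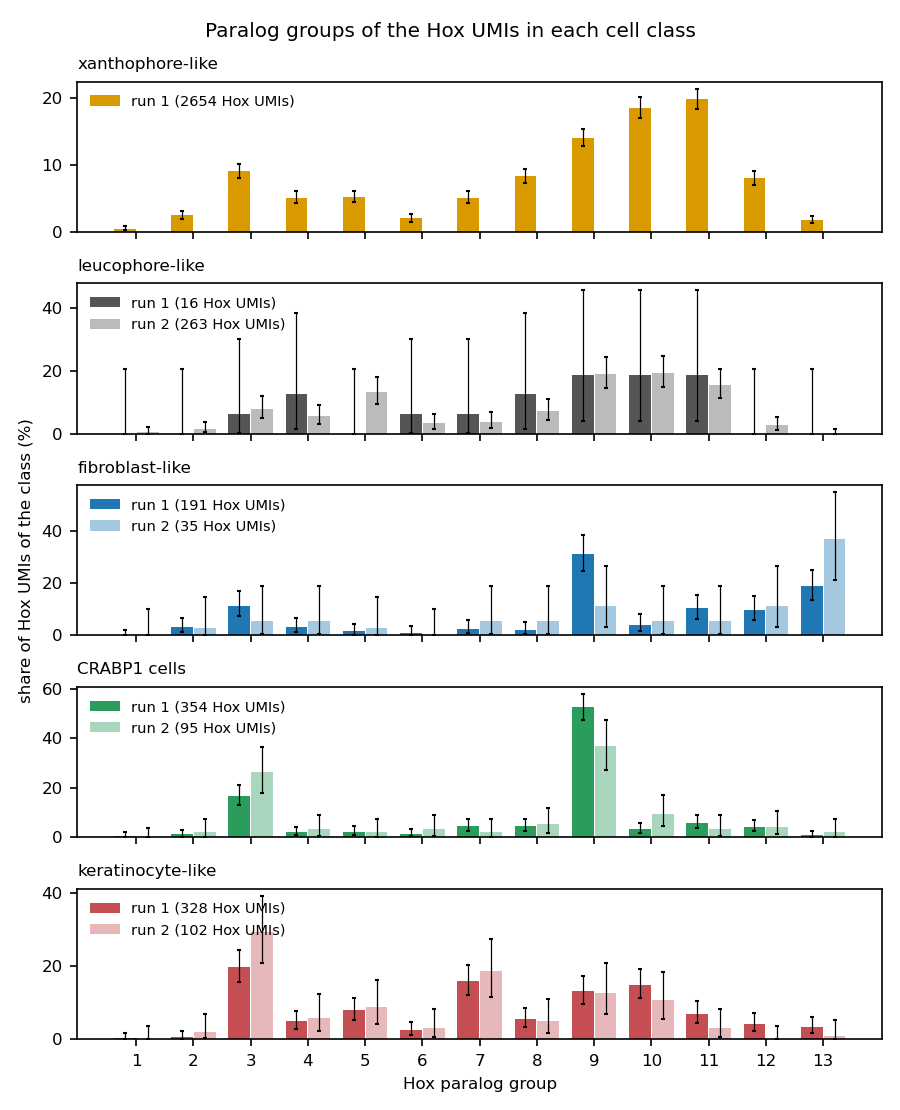
Share of the Hox UMIs of each class, in percent, by paralog group 1 to 13, with full colour for run 1, pale colour for run 2 and bars for 95% exact binomial intervals. The xanthophore-like class of run 2 (2 Hox UMIs) is not drawn; group 13 is tall in fibroblast-like cells at 18.8% and 37.1%, and group 9 in CRABP1 cells at 52.5% and 36.8%.

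Fibroblast-like cells differed from keratinocyte-like cells in genes of groups 9, 11, 12 and 13 and in hoxb3a, while hoxc10a and hoxc9a were not called (log2 fold changes 0.57, SE 0.80, and 0.20, SE 0.94). hoxa13b, whose mouse counterpart patterns the end of the limb, stood at 39.0 CPM in run 1 and 26.7 CPM in run 2, with 0 UMIs in keratinocyte-like cells of either run. Against the floor of 3 UMIs per library, that is at least 114-fold higher in run 1 and at least 24.1-fold higher in run 2. hoxc13a, needed for hair and nails in mice, stood at 14.2 and 32.0 CPM, again with 0 UMIs in keratinocyte-like cells, or at least 41.4-fold and at least 28.9-fold higher. These bounds leave out the counting error of the fibroblast-like UMIs, 22 and 5 for hoxa13b and 8 and 6 for hoxc13a. Both genes were above every keratinocyte-like value in both runs.

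hoxd9a, a posterior gene used in fin and limb buds, stood at 54.9 CPM in run 1 and 5.33 CPM in run 2, where keratinocyte-like cells held 0.342 and 1.11 CPM. Its fitted log2 fold change was 4.95 (SE 0.96, edgeR's quasi-likelihood test, n = 2 sums a class). hoxb9a, of the trunk, stood at 35.4 and 10.7 CPM against 0.798 and 0.369 CPM, a log2 fold change of 4.45 (SE 0.79, edgeR). hoxc12a stood at 21.2 and 10.7 CPM against 1.60 and 0 CPM. In each of these genes run 1 was the higher run of the fibroblast-like class. The levels of run 2 lay under the floor of that sum, 15.99 CPM, so run 2 does not show whether the classes overlap. The anterior hoxa3a, at 17.7 and 5.33 CPM against 6.61 and 7.75 CPM, overlapped between the classes.

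In this comparison 13 of the 37 genes passed the filter on low counts and 8 were called higher, hoxa13b, hoxc13a, hoxd9a, hoxb9a, hoxc12a, hoxa11b, hoxc11a and hoxb3a, and 0 lower, at an adjusted p under 0.05 and a log2 fold change of at least 1. Of all genes tested, 16.6% were called higher and 17.4% lower, and the median log2 fold change over all of them was -0.11. Genes that passed the filter only through a class where they are high had to differ, so the count is a description. The calls rest on run 1: without the fibroblast-like sum of run 1, 1 Hox gene was called, and without the keratinocyte-like sum of run 1, 4 were called. Without a sum, hoxa13b had log2 fold changes of 8.50 to 9.26 in the 3 fits that tested it, and hoxc13a of 7.92 to 8.66 in all 4. The fit without the fibroblast-like sum of run 1 did not test hoxa13b, and that without the keratinocyte-like sum of run 1 did not test hoxa11b. hoxa13b and hoxc13a passed the filter only through fibroblast-like cells, so they had to differ and these values are descriptions. hoxd9a passed it only through run 1 of fibroblast-like and CRABP1 cells, so its call is a description too. For hoxc12a it was only through run 1 of fibroblast-like and xanthophore-like cells. For hoxb9a and hoxb3a it was only through CRABP1 cells and run 1 of fibroblast-like cells. The calls of these genes are descriptions as well. hoxc11a was called in 0 of the 4 fits without a sum and hoxb3a in 2 of 4, and both lost their call with DESeq2 and with no replicate block.

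**Figure D4:**
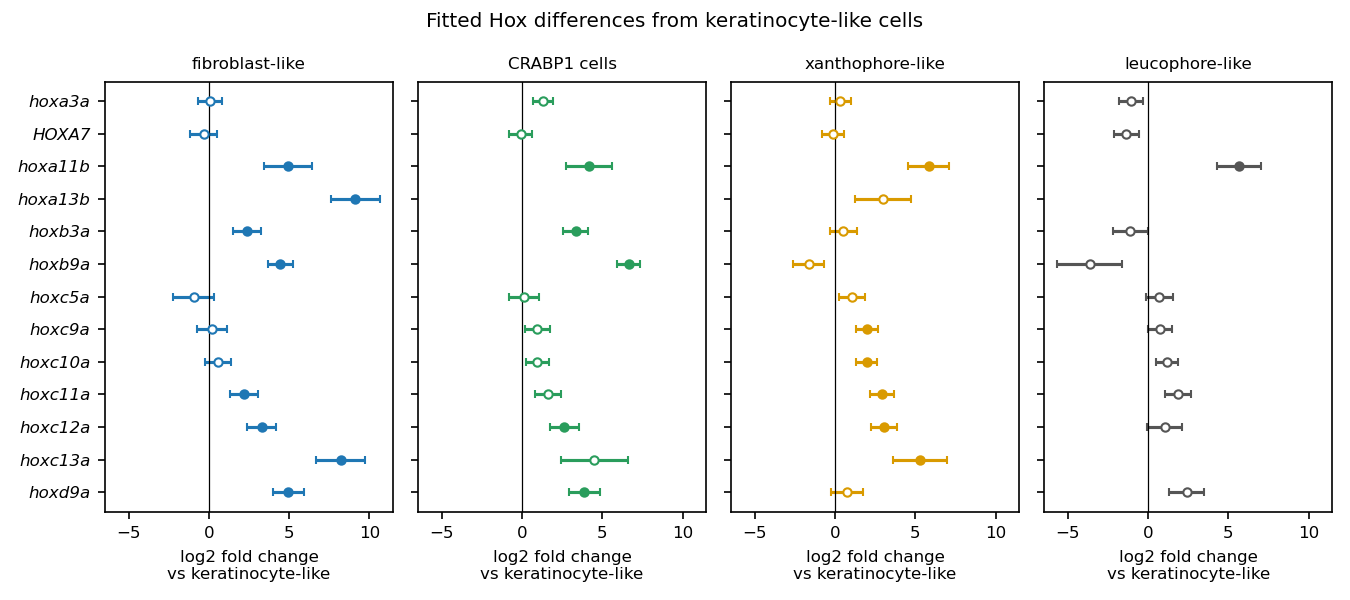
Fitted log2 fold changes of the 13 Hox genes tested, each class against keratinocyte-like cells, with bars for 1 SE and filled points for genes called. Points with no usable SE, where both classes were at 0 UMIs, are not drawn, and fold changes of hoxa13b and hoxc13a depend on a small added count because keratinocyte-like cells held 0 UMIs.

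CRABP1 cells led with hoxb9a. It stood at 116 CPM (97.9 to 136) in run 1 and 64.2 CPM (42.3 to 93.3) in run 2, and made up 41.5% and 28.4% of the Hox UMIs of these cells. It was seen in 68 of 212 and 9 of 31 cells, with up to 15 and 7 UMIs in a cell. Leucophore-like cells held 0 hoxb9a UMIs, which allows up to 18.4 and 1.18 CPM, and xanthophore-like cells of run 1 held 0.390 CPM. The gene was not particular to CRABP1 cells. Fibroblast-like cells held it at 35.4 and 10.7 CPM. Scale-forming cell-like cells, described below, also held it in both runs, from too few UMIs to set an order against CRABP1 cells.

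Against keratinocyte-like cells, hoxb9a had a log2 fold change of 6.64 (SE 0.72, edgeR's quasi-likelihood test, n = 2 sums a class). In the 4 fits that left out a sum it ranged from 6.33 to 7.18. hoxb3a, an anterior gene of the same complex, stood at 20.5 CPM and 33.3 CPM, where keratinocyte-like cells held 0.798 and 3.32 CPM, a log2 fold change of 3.35 (SE 0.76). hoxb9a and hoxb3a passed the filter on low counts only through CRABP1 cells and run 1 of fibroblast-like cells. They therefore had to differ, and their calls are descriptions. hoxb8a, between them in paralog number, stood at 11.8 and 9.50 CPM against 0.228 and 0 CPM but did not pass the filter. With the 12 xanthophore-like cells of run 2 left out it was tested, at a log2 fold change of 5.14 (SE 1.41, edgeR). It passed that filter only through CRABP1 cells, so it had to differ and its call is a description. With it, 6 Hox genes were called higher and 0 lower in that fit, where 13.8% and 18% of all genes were called. hoxa3a stood at 26.0 and 26.1 CPM, beside 6.61 and 7.75 CPM, with an adjusted p of 0.11 by edgeR. hoxa13b had 0 UMIs in CRABP1 cells, which allows up to 2.37 and 7.13 CPM, so fibroblast-like cells held at least 16.5-fold more in run 1 and at least 3.74-fold more in run 2.

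In that comparison 5 Hox genes were called higher (hoxb9a, hoxb3a, hoxd9a, hoxa11b and hoxc12a) and 0 lower, where 15.4% and 17% of all genes tested were. Since hoxb9a, hoxb3a and hoxd9a passed the filter only through classes where they are high, the count is a description. The count was 3 without the CRABP1 sum of run 1, 2 without the keratinocyte-like sum of run 1 and 3 without that of run 2. The fits just counted did not test hoxa11b, so they do not show that its call failed. It lost its call with DESeq2, and hoxc12a did with no replicate block. CRABP1 cells also held keratinocyte markers: the 12 listed genes summed to 16419 and 15528 CPM, of which 11 and 8 had a UMI. The sums were 75024 and 58386 CPM in keratinocyte-like cells and 6319 and 4878 CPM in fibroblast-like cells. The part of these markers in the result was not tested.

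Xanthophores carry yellow to orange pigment, and in run 1 they held the HoxC genes of groups 8 to 12. hoxc10a led with 47.9 CPM (492 UMIs), then hoxc11a with 37.6 CPM, hoxc9a with 26.9, hoxc8a with 21.4 and hoxc12a with 20.6 CPM. Keratinocyte-like cells of run 1 held these at 5.59, 2.40, 3.54, 1.82 and 1.60 CPM in the same order. hoxa11b stood at 13.2 CPM against 0.114 CPM, and hoxc13a at 2.24 CPM against 0 UMIs, or at least 6.55-fold higher. Anterior and middle HoxA genes were present too, with hoxa3a at 19.4 CPM and HOXA7 at 13.2 CPM.

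The fit over both runs called 6 Hox genes higher than in keratinocyte-like cells (hoxa11b, hoxc13a, hoxc12a, hoxc11a, hoxc10a and hoxc9a) and 0 lower, where 18.2% and 23.9% of all genes tested were. hoxa11b passed the filter only through xanthophore-like and leucophore-like sums, so its call is a description. hoxc12a passed it only through run 1 of xanthophore-like and fibroblast-like cells, so its call is a description too. Without the 12 cells of run 2, 19 Hox genes were tested, 10 were called higher and 0 lower, where 17.7% and 20.9% of all genes were. hoxc10a then had a log2 fold change of 2.61 (SE 0.65, adjusted p = 0.0003, edgeR, 1 sum against 2, the lone sum being assumed to vary like the other classes) and hoxc11a one of 3.40 (SE 0.72, adjusted p = 1.5e-05, edgeR). Without run 1 of the xanthophore-like class 0 were called. In the sum of run 2, hoxc10a, hoxc11a, hoxc12a and hoxc13a had 0 UMIs, which allows up to 37.8 CPM each and gives no direction against keratinocyte-like cells. The count was 1 without the keratinocyte-like sum of run 1 and 3 without that of run 2. Of the fits without a sum, only that without the 12 cells of run 2 tested hoxa11b, so the other counts do not show that its call failed. hoxc10a also lost its call with DESeq2. The xanthophore-like result is thus a result of run 1.

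Xanthophore-like clusters differed among themselves in level and in composition. Over the 6 clusters the summed Hox level ran from 132 CPM (119 to 146, 591 cells) to 472 CPM (435 to 511, 298 cells), and the posterior share from 50% (40.6 to 59.4) to 69.4% (64.8 to 73.8). hoxc10a or hoxa3a led every cluster. In keratinocyte-like clusters the level ran from 24.8 to 84.7 CPM.

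**Figure D5:**
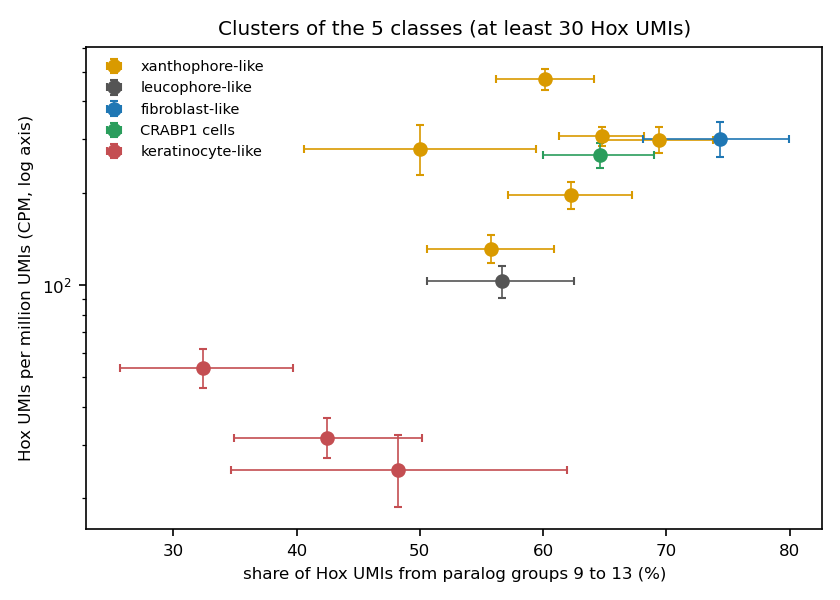
Summed Hox level in CPM on a log axis against the share of Hox UMIs from groups 9 to 13 in percent, 1 point for each cluster of the 5 classes with at least 30 Hox UMIs, with bars for 95% intervals. Keratinocyte-like clusters sit low with under 50% posterior UMIs, and the fibroblast-like cluster lies furthest right, at 74.3%.

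Leucophores, white pigment cells, also led with hoxc10a. It stood at 18.4 and 19.98 CPM, from 3 and 51 UMIs. In run 2, the deeper sum of this class, hoxc9a stood at 13.3 CPM, hoxc11a and hoxc5a at 11.4 CPM each and hoxa3a at 7.05 CPM. In run 1 these 4 had 0 UMIs among 16 Hox UMIs, where 0 UMIs allows up to 18.4 CPM, so their absence there was not detectable at this depth.

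The summed level was 2.62-fold (1.48 to 4.32) and 2.74-fold (2.17 to 3.48) that of keratinocyte-like cells in runs 1 and 2. Of single genes, 1 was called higher, hoxa11b, at 12.2 and 4.31 CPM beside 0.114 and 0 CPM, with a log2 fold change of 5.67 (SE 1.39, edgeR, n = 2 sums a class), and 0 lower, where 17.4% and 22.8% of all genes were. The hoxa11b level of run 1 lay under the floor of that sum, 18.4 CPM. This gene passed the filter only through xanthophore-like and leucophore-like sums, so its call is a description. Single-gene counts for this comparison depend on the sums used: 3 were called without the leucophore-like sum of run 1, 0 without that of run 2, 0 without the keratinocyte-like sum of run 1 and 2 without that of run 2. Of these fits, only 1 tested hoxa11b, that without the leucophore-like sum of run 1, at a log2 fold change of 6.39. In the others it did not pass the filter, so their counts do not show that its call failed. hoxa3a, at 0 and 7.05 CPM against 6.61 and 7.75 CPM, and HOXA7, at 6.12 and 3.92 CPM beside 5.93 and 7.01 CPM, overlapped with keratinocyte-like cells.

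The comparison of leucophore-like with xanthophore-like cells rests largely on different runs, since run 1 held 26 leucophore-like cells and run 2 held 12 xanthophore-like cells. Within run 1 the summed level of leucophore-like cells was 0.379 of the xanthophore-like level (0.216 to 0.616). Within run 2 it was 4.09-fold (1.12 to 34.0), in the sum that held pmela. By edgeR 0 Hox genes were called in either direction, where 3.63% of all genes were called higher and 3.96% lower. In this fit over both runs only hoxc13a (1 gene) had an unadjusted p under 0.05, at 0 and 0 CPM against 2.24 and 0 CPM. DESeq2 also called 0. With SEs of 0.71 to 2.54 on the log2 scale, these fits do not show that the classes are alike: for hoxc10a the log2 fold change was -0.81 (SE 0.71). Without the 12 xanthophore-like cells of run 2 it was -1.64 (SE 0.77). In that fit hoxc9a had a log2 fold change of -1.90 (SE 0.86) and hoxd9a, in the other direction, one of 1.67 (SE 1.05).

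Fibroblast-like cells were set against xanthophore-like cells as well. hoxb9a, at 35.4 and 10.7 CPM against 0.390 and 0 CPM, had a log2 fold change of 6.10 (SE 0.93, edgeR, n = 2 sums a class). hoxa13b, at 39.0 and 26.7 CPM against 0.487 and 0 CPM, had one of 6.13 (SE 1.30). It passed the filter only through fibroblast-like cells, so it had to differ and its call is a description. hoxd9a, at 54.9 and 5.33 CPM against 2.14 and 0 CPM, had a log2 fold change of 4.22 (SE 0.93, edgeR). It passed the filter only through run 1 of fibroblast-like and CRABP1 cells, so its call is a description as well. hoxb9a passed the filter only through CRABP1 cells and run 1 of fibroblast-like cells, and the same holds for its call. These 3 were called higher and 0 lower, where 13.7% of all genes were called higher and 6.95% lower. With the 12 cells of run 2 left out, where 11.1% of all genes were called higher and 7.73% lower, the same 3 were higher and 2 were lower: hoxc10a had a log2 fold change of -2.15 (SE 0.77, adjusted p = 0.031) and hoxc9a one of -2.40 (SE 0.89, adjusted p = 0.039) by edgeR. Without the xanthophore-like or the fibroblast-like sum of run 1, 0 were called, and hoxa13b lost its call with DESeq2.

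Keratinocytes, the epithelial cells of the skin surface, led with an anterior and a middle HoxA gene. hoxa3a stood at 6.61 and 7.75 CPM and HOXA7 at 5.93 and 7.01 CPM, close between runs. hoxc10a followed with 5.59 and 4.06 CPM. HOXA7 was seen in 49 of 897 cells of run 1. In all 4 comparisons with keratinocyte-like cells, hoxa3a and HOXA7 were not called, with log2 fold changes from -1.35 to 1.29.

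Hox genes of distant paralog groups were found in the same cells. Of the xanthophore-like cells of run 1, 559 held at least 2 Hox genes. Among these, 25.2% (21.7 to 29.0) held genes of groups 9 to 13 only, and 44.2% held a gene of groups 1 to 5 together with one of groups 9 to 13. In fibroblast-like cells of run 1, 24 of 50 such cells (48.0%, 33.7 to 62.6) held genes of groups 9 to 13 only, and 36.0% held both ends. In CRABP1 cells of run 1, 53.4% of 58 cells held both ends. Cells with at least 2 Hox genes were deeper than their class, with a median of 5471 UMIs in xanthophore-like cells of run 1 against 4355.

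Within xanthophore-like cells of run 1, neighbouring genes were found together. hoxc11a was seen in 36.0% (28.0 to 44.7) of the 136 cells with hoxc12a and in 11.6% (10.2 to 13) of the other cells. hoxc12a was seen in 22.0% (14.9 to 30.6) of the 118 cells with hoxa11b, a gene of another complex, and in 5.24% (4.33 to 6.28) of the others. hoxc9a, of a lower group, was seen in 8.47% (4.14 to 15) of cells with hoxa11b and 10.4% (9.16 to 11.8) of the others. Cells with hoxa11b were deeper, at a median of 5804 against 4279 UMIs, and depth raises every share, so these shares are descriptions.

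In fibroblast-like cells hoxa13b and hoxb9a were not detected in the same cell. Over both runs, 16 cells held hoxa13b and 18 held hoxb9a, and 0 held a UMI of both. hoxa13a, the duplicate of hoxa13b, was seen in 4 of the 16 hoxa13b cells and in 2 of the other 186. tbx4, which in mice marks the hindlimb, was seen in 5 of the 16 (31.3%) against 7.53% of the others, and in 0 of the 18 hoxb9a cells. The hoxa13b cells had a median of 3900 UMIs and the others 3019. hoxc13a was seen in 8 cells, 0 of them with hoxa13b. A cell rarely held more than a few Hox UMIs, and a missing UMI does not show that a cell lacks the transcript, so these counts set no limit on the share of cells that express both genes.

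Scale-forming cell-like cells held both genes as a class. hoxb9a stood at 146 and 111 CPM and hoxa13b at 117 and 111 CPM, from 15 and 4 and from 12 and 4 UMIs. hoxa13b was thus held by fibroblast-like and scale-forming cell-like cells in both runs. Endothelial-like cells led with hoxd9a, at 78.8 and 75.7 CPM. Iridophore-like cells, pigment cells with reflecting crystals, led with the HoxC genes hoxc11a at 127 CPM and hoxc9a at 115 CPM in run 1. Among unnamed clusters, one of 15 cells whose leading genes are known from the gut held 278 CPM, led by hoxb3a with 18 of 73 UMIs, and 1 of 38 cells held 237 CPM, led by hoxb9a with 26 of 58.

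Genes that act with Hox proteins were examined as lists. In each list, a gene that passed the filter on low counts only through a class where it is high had to differ. The counts of calls and the medians are therefore descriptions. The counts below are against keratinocyte-like cells, where the share of all genes called higher and lower was 16.6% and 17.4% for fibroblast-like, 15.4% and 17% for CRABP1, 18.2% and 23.9% for xanthophore-like and 17.4% and 22.8% for leucophore-like cells. MEIS and PBX proteins bind DNA together with Hox proteins. Of 9 cofactor genes, 6 were tested, and against keratinocyte-like cells 3 were called higher and 0 lower in fibroblast-like cells (median log2 fold change 1.64, against -0.11 for all genes), 1 and 0 in CRABP1 cells (0.99 against -0.01), 2 and 1 in xanthophore-like cells (0.69 against -0.15) and 3 and 1 in leucophore-like cells (1.21 against -0.18). meis1b was called higher in all 4, at 36.7 to 101 CPM in the 8 sums against 6.50 and 9.96 CPM. MEIS2 stood at 97.4 and 90.6 CPM in fibroblast-like cells and at 1.75 and 0 CPM in xanthophore-like cells, and was lower in xanthophore-like and leucophore-like cells than in keratinocyte-like cells (log2 fold changes -4.48, SE 0.70, and -5.08, SE 0.80, adjusted p = 3.9e-07 and 4.7e-07 by edgeR).

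Polycomb and Trithorax proteins keep Hox genes silent or active through cell division. Of 29 such genes, 23 were tested. In fibroblast-like cells 4 were called higher and 2 lower (median 0.49), in CRABP1 cells 7 and 2 (0.94), in xanthophore-like cells 2 and 3 (0.48) and in leucophore-like cells 5 and 3 (0.73), beside the medians of all genes above. The 4 of 23 in fibroblast-like cells is near the 16.6% of all genes, and the 2 of 23 in xanthophore-like cells lies below 18.2%. ezh1, a histone H3 lysine methyltransferase, was higher in all 4 classes, at 12.6 to 81.7 CPM against 3.99 and 3.32 CPM. cbx7a, a Polycomb subunit that reads this mark, stood at 3713 and 2569 CPM in fibroblast-like cells and 636 and 347 CPM in keratinocyte-like cells. In xanthophore-like cells it stood at 494 and 378 CPM and in leucophore-like cells at 441 and 329 CPM, and it was called lower in both. Leucophore-like cells stood below keratinocyte-like cells within each run, though close to them in run 2. Xanthophore-like cells stood below them in run 1 and above them in run 2, in the sum that held pmela.

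Other transcription factors that mark body regions formed the next list. Of 41 such genes 11 were tested. Fibroblast-like cells had 8 higher and 2 lower than keratinocyte-like cells (median 4.73) and CRABP1 cells 7 and 2 (3.74), while xanthophore-like cells had 0 and 5 (-2.52) and leucophore-like cells 0 and 3 (-3.88). Set directly against xanthophore-like cells, fibroblast-like cells had 10 higher and 0 lower (median 6.90, against -0.04 for all genes), where 13.7% of all genes were called higher. Fibroblast-like and leucophore-like cells were not compared. prrx1b and alx4b of this list also served as markers of the classes, so their part is not independent. The limit set by the filter holds for the direct comparison too, so its count is a description. tbx4 stood at 92.1 and 155 CPM in fibroblast-like cells and at 0 UMIs in CRABP1 cells of both runs. pitx1, which acts with Tbx4 in the mouse hindlimb, stood at 53.1 and 96.0 CPM in fibroblast-like cells and at 16.6 and 30.9 CPM in CRABP1 cells. en1a stood at 39.4 CPM in CRABP1 cells of run 1 and at 0 in those of run 2.

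Retinoic acid sets Hox expression in the embryo, and genes that make, carry or degrade it were the last list. Of 16 genes 9 were tested. In fibroblast-like cells 5 were higher and 0 lower than in keratinocyte-like cells (median 5.001) and in CRABP1 cells also 5 and 0 (2.88), the same genes in both: crabp2b, CRABP1, cyp26b1, aldh1a2 and dhrs3b, of which CRABP1 names a class. cyp26b1, which degrades retinoic acid, stood at 235 and 144 CPM in fibroblast-like cells and 156 and 102 CPM in CRABP1 cells against 6.27 and 0.369 CPM. aldh1a2, which makes it, stood at 67.3 and 5.33 CPM and at 33.1 and 26.1 CPM against 0.456 and 1.11 CPM. In xanthophore-like cells 2 were higher and 1 lower (0.40) and in leucophore-like cells 5 and 1 (1.75).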

How the data were processed

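The authors deposited, per run, a matrix of raw UMI counts per gene and barcode, made with Cell Ranger 7.1.0 per the file headers. Its genome build is not stated in any source at hand.

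Barcodes were kept from 500 UMIs and 300 genes upward and up to 20% mitochondrial UMIs. Scrublet marked only 22 and 1 doublets, so the top 4% of its scores (168 and 24) were removed. Clusters used 2000 variable genes without Hox genes, 30 principal components, 15 neighbours and Leiden resolution 1 (scanpy 1.11.5), and were named from at least 3 markers. The Hox genes, lists, markers and rules were chosen with earlier results of these data known.

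UMIs were summed per class and run. edgeR 4.0.16 fitted 12 sums of 6 classes (9741 genes after filterByExpr, TMM) with the run as a block, since each run is 1 library. A call needed an adjusted p (Benjamini-Hochberg) under 0.05 with a log2 fold change of 1 or more in size. The SE is the fold change over the square root of F. Alternatives included DESeq2 1.42.0. The fit was tested on simulated fibroblast-like and keratinocyte-like sums. It called 0 of 50 genes raised 2-fold and 29 of 50 raised 4-fold. Its log2 fold changes were off by medians of -0.351 to -0.483, and 9 unchanged genes were called. The changed genes were drawn from those above 20 CPM in keratinocyte-like cells. No Hox gene reached that level there, so these rates do not measure how well changes in Hox genes are found. A gene that was not called is thus not shown to be equal between classes. Intervals are exact at 95%, and floors are 3 UMIs per library. Fold changes given as at least a value set the observed level against such a floor, without the counting error of the observed level. Genes with at least 20 UMIs or a call could be named. Near-identical duplicates may share reads.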

Additional observations from a re-analysis of the deposited data

How the results depend on the processing

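Depth limits the results: 24 of 37 Hox genes did not pass the filter, of which 6 did once the 12-cell xanthophore-like sum of run 2 was left out, and leucophore-like run 1 and xanthophore-like run 2 held 16 and 2 Hox UMIs. With all sums in the fit, 143 of 154 re-fitted gene calls were called again, 11 were not and 0 reversed. Without 1 sum, 46 of 78 were called again, 27 were not and 5 changed sign, each in a sum where the gene had 0 UMIs, so that no direction can be read. Without xanthophore-like run 1 these were hoxc13a, hoxc12a, hoxc11a and hoxc10a against keratinocyte-like cells, whose log2 fold changes without 1 sum ranged from -0.86 to 5.73, -3.72 to 7.25, -4.82 to 3.40 and -6.58 to 2.61. Without fibroblast-like run 1 it was hoxa11b, from -0.55 to 5.09. In these sums 0 UMIs allows up to 37.8 and 15.99 CPM, above the keratinocyte-like levels.

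For leucophore-like against keratinocyte-like cells the count of Hox genes called was 1 and became 2 with no filter, at Leiden resolution 0.5 or with no doublet removal, 4 with TMM over genes of at least 100 CPM, an alternative added after seeing the data, and 0 with classes taken from UMIs in single cells. That last setting left 1 Hox gene called for fibroblast-like and for CRABP1 cells, since fewer genes passed the filter. With no filter 5 were called between fibroblast-like and xanthophore-like cells. Without 1 sum, counts ranged from 1 to 8 (fibroblast-like), 2 to 4 (CRABP1), 0 to 10 (xanthophore-like) and 0 to 3 (leucophore-like) against keratinocyte-like cells, 0 to 5 for fibroblast-like against xanthophore-like cells and 0 to 0 for leucophore-like against xanthophore-like cells. At Leiden resolution 0.5 no CRABP1 class formed, and the fibroblast-like class held 408 and 74 cells. CRABP1 was among its leading genes, at 923 CPM, so that setting did not hold fibroblast-like cells apart from CRABP1 cells. Single-cell classes gave too few xanthophore-like cells in run 2. Comparisons with these missing classes were not run. With no replicate block, the counts were 6, 4, 6, 1, 0 and 4 in the order fibroblast-like, CRABP1, xanthophore-like and leucophore-like against keratinocyte-like, leucophore-like and then fibroblast-like against xanthophore-like, and hoxc11a and hoxb3a (fibroblast-like, adjusted p = 0.078 and 0.066 by edgeR) and hoxc12a (CRABP1, 0.050) lost their call.

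Scaling moved all genes. With TMM over abundant genes the median log2 fold change over all genes went from -0.15 to 0.50 (xanthophore-like), -0.18 to 0.77 (leucophore-like) and -0.11 to 0.22 (fibroblast-like) against keratinocyte-like cells, from 0.01 to 0.28 between leucophore-like and xanthophore-like cells and from -0.04 to -0.36 between fibroblast-like and xanthophore-like cells. The share of calls that were higher went from 43.2% to 61.0%, 43.3% to 68.1%, 48.8% to 58.9%, 47.8% to 59.5% and 66.4% to 55.6% in that order. With the DESeq2 Wald test the fibroblast-like share was 59.97%.

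Thinning to 1000 UMIs gave shares of cells with a Hox UMI of 20.8% and 0% (xanthophore-like, runs 1 and 2), 12.2% (leucophore-like run 2), 32.0% (fibroblast-like run 1), 20.7% (CRABP1 run 1) and 2.84% (keratinocyte-like run 1). With equal weight per cell, the posterior share of xanthophore-like cells of run 1 was 59.2%. The log2 ratio of the summed level was -0.58 without replicate 1 for xanthophore-like against keratinocyte-like cells and -1.40 without replicate 2 for leucophore-like against xanthophore-like cells, of opposite sign to the means over both runs (1.11 and 0.32), which take in the 2 Hox UMIs of xanthophore-like run 2; over runs left out the log2 ratios ranged from -0.58 to 2.79 and from -1.40 to 2.03.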
